A study of Notophthalmus viridescens with 12 samples.

Results

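After surgical removal of the lens (lentectomy), the eastern newt Notophthalmus viridescens regrows a lens from the dorsal iris. Transcripts were sought here that were low in the dorsal iris at every time sampled before 4 days post-lentectomy (dpl) and high in every library at 4 dpl. The groups were intact irises, 6 h post-lentectomy (hpl), 1 dpl and 4 dpl, with 3 libraries each. For every library the dorsal irises of 3 or 4 wild-caught adults, left and right together, were combined, so the tests below measure the spread between such pools. No further treatment and no genetic change was given for any group. Members were chosen on the measured values. A member had a mean of 50 or more at 4 dpl, means in the other 3 groups within 1.5 log2 units of each other, and a gap of at least 1.5 log2 units between its lowest 4 dpl library and its highest earlier library, on a log2(value + 1) scale. Of 856451 assembled transcripts, 270 met these criteria, and the 200 with the largest gaps are the members described here.

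In this kind of regeneration, pigment epithelial cells of the dorsal iris lose their pigment, re-enter the cell cycle and convert into lens cells. Immune cells, macrophages among them, enter the injured eye over the same days, take up released pigment granules and clear debris. The tissue was sequenced in bulk, so more cells of a type and more RNA per cell cannot be told apart. The table lists transcripts by ID without gene names. The members can therefore not be assigned to immune cells, pigment epithelium or the cell cycle, and the labelled tissue could not be checked against its markers. No sequence of any member was at hand, so none is shown.

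Values are a normalised abundance per transcript, from which the depth of a library cannot be recovered. They summed to between 27737613 and 40770545 per library, and between 10488 and 35104 transcripts per library were listed at 0. The members made up only 0.0141% to 0.0289% of the sum in the 9 earlier libraries and 0.189% to 0.209% at 4 dpl.

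Group means of the members had a median of 129 at 4 dpl, against 11.4 at 1 dpl, 10.01 at 6 hpl and 8.0 in intact iris. The ratio of the 4 dpl mean to the mean of the 9 earlier libraries had a median of 12.6 and ran from 5.03 to 199. On the log2(value + 1) scale the difference between 4 dpl and the mean of the 3 earlier groups had a median of 3.60 and ran from 2.33 to 7.05. It was 4 or more for 67 members and 5 or more for 15. The rule fixed the direction of these differences, so they describe the members and carry no test.

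**Figure D1:**
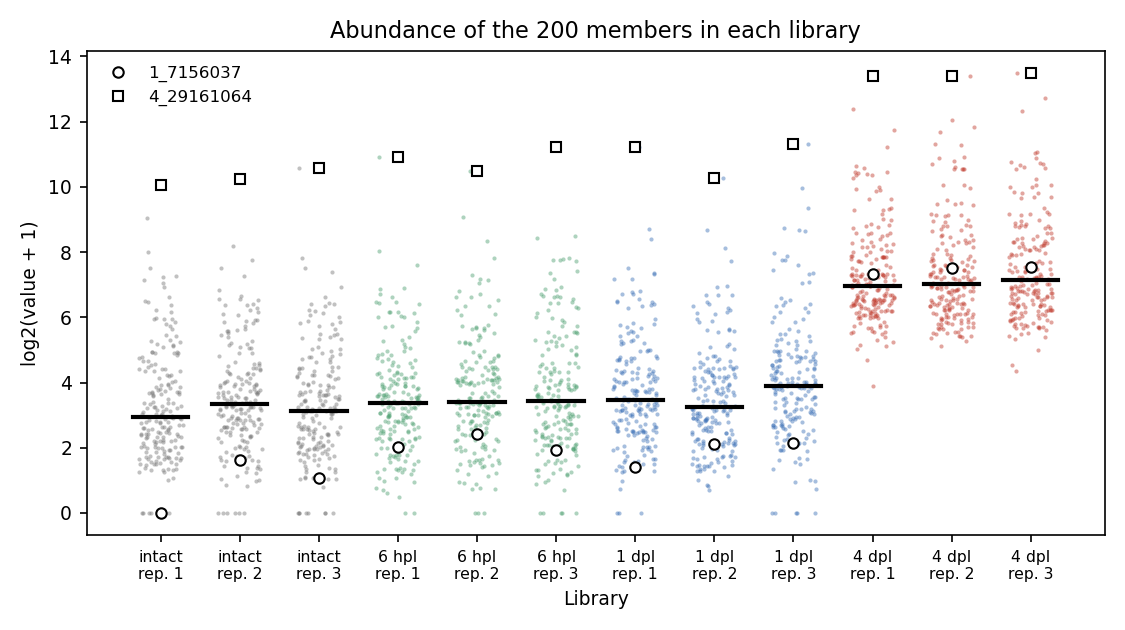
Values of the 200 members in each of the 12 libraries on a log2(value + 1) scale; small points are members, black bars are medians and open symbols are the 2 members named in the text. Medians of the untransformed values lay between 6.62 and 13.9 in the 9 earlier libraries and between 124 and 141 at 4 dpl, and the highest earlier median belonged to 1 dpl replicate 3.

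Few members were close to 0 throughout before 4 dpl. Only 12 stayed below 5 in every earlier library, 145 reached a highest earlier value from 5 to below 50, and 43 reached 50 or more. In 3 members the highest earlier library stood at 500 or more. None was listed at 0 in all 9 earlier libraries, 20 were listed at 0 in at least 1 of them, and such zeros can also arise where no estimate was obtained. Over all transcripts, the median value lay between 7.94 and 8.51 in the 9 earlier libraries. A value of 5 therefore marks no boundary between off and on. The criteria also let the earlier groups differ, and in 83 members (41.5%) their means were over 1 log2 unit apart. "Highest at 4 dpl" thus describes the members better than "switched on" or "raised only at 4 dpl".

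Levels at 4 dpl were spread widely. Means lay between 50 and 100 for 75 members, between 100 and 200 for 57, between 200 and 500 for 40, between 500 and 1000 for 10 and at 1000 or more for 18. The transcript with the highest 4 dpl mean of all 270 was not a member, since it sat just past the limit of 200. It averaged 11397 at 4 dpl with a gap of 1.686, whereas the last member inside averaged 300.4 with a gap of 1.688. The gaps of the 5 members just inside ran from 1.688 to 1.696 and those of the 5 transcripts just outside from 1.673 to 1.686, so the limit divides transcripts with near-identical gaps.

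**Figure D2:**
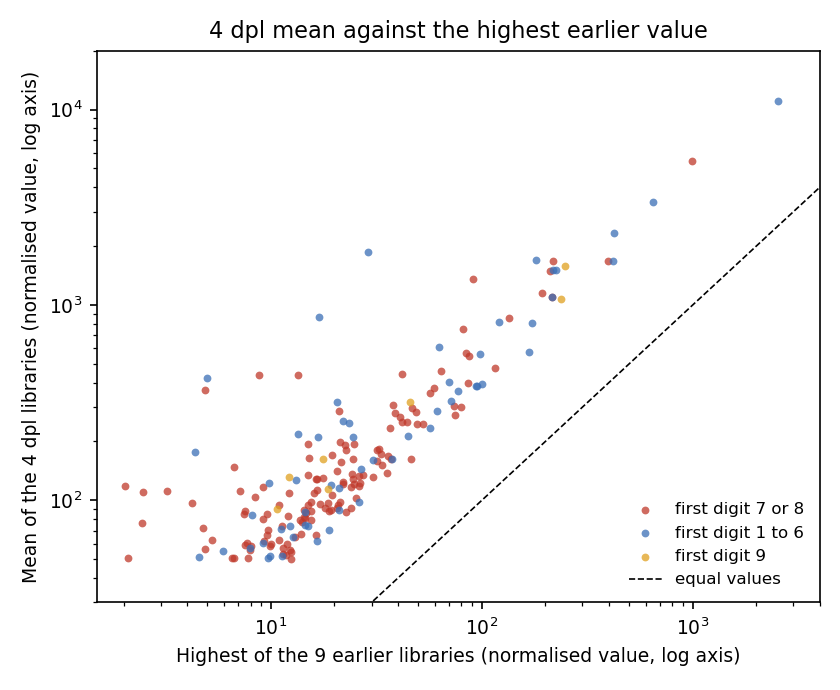
Mean of the 4 dpl libraries against the highest of the 9 earlier libraries for each member, both as normalised values on log axes, with points coloured by the first digit of the transcript ID and a dashed line at equal values. Members cover levels from 50.3 to 11091 at 4 dpl, and all lie above the line, as the rule requires.

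Transcript 1_7156037 had the largest gap, 4.91 log2 units. Intact libraries held 0, 2.09 and 1.11, the 6 hpl libraries 3.02, 4.36 and 2.79, the 1 dpl libraries 1.67, 3.33 and 3.41, and the 4 dpl libraries 161, 180.4 and 186. All 6 hpl libraries lay above all intact ones, the 1 dpl libraries overlapped with both groups, and the 4 dpl libraries lay close together far above them. Its log2 differences at 4 dpl were 6.56 against intact, 5.34 against 6 hpl and 5.57 against 1 dpl, each with an SE of 0.49.

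Transcript 4_29161064 had the highest 4 dpl mean of the members and was abundant throughout. It was at 1076, 1214 and 1523 in intact iris, at 1933, 1439 and 2366 at 6 hpl, and at 2387, 1228 and 2530 at 1 dpl. At 4 dpl it reached 10834, 10848 and 11589. The 6 hpl and 1 dpl libraries overlapped, as did those of 6 hpl and intact, and the lowest 4 dpl library stood 2.10 log2 units above the highest earlier one. Its log2 differences at 4 dpl were 3.14 against intact, 2.56 against 6 hpl and 2.51 against 1 dpl (SE 0.34 each), smaller than those of 1_7156037 although the gain in the value itself was far larger.

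The member with the second largest gap was the nearest to a transcript off before 4 dpl. All 3 intact libraries listed it at 0, the 6 hpl libraries held 0, 0 and 1.38, the 1 dpl libraries 0.962, 2.04 and 0.987, and the 4 dpl libraries 77.2, 118 and 161. The fifth by gap was listed at 0 in 4 of the 9 earlier libraries, did not exceed 3.21 in any of them, and was at 80.6, 84.9 and 169 at 4 dpl. In both, the 4 dpl libraries lay far above the earlier ones, and spanned 1.05 and 1.06 log2 units among themselves.

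Among the abundant members, the second highest at 4 dpl held 528, 217 and 225 in the intact libraries, 192, 537 and 343 in those of 6 hpl, 337, 406 and 989 in those of 1 dpl and 5372, 4226 and 6775 in those of 4 dpl. The third highest held 255, 289.9 and 42.7 in the intact libraries, 104, 98.0 and 142 in those of 6 hpl, 163, 275 and 651 in those of 1 dpl and 2371, 2521 and 5163 in those of 4 dpl. The fourth held 89.1, 58.7 and 84.6 in intact libraries, 63.5, 47.6 and 46.3 in those of 6 hpl, 60.7, 80.0 and 425 in those of 1 dpl and 3406, 1503 and 2095 in those of 4 dpl. In all 3 of these members 1 dpl replicate 3 was the highest of the earlier libraries, and in the last of them its value was over 4 times any other earlier value.

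This library stood apart for the members as a whole, and to a lesser degree over all transcripts. It was the highest of the 9 earlier libraries in 60 of 200 members (30%), and in 9 of the 18 members with a 4 dpl mean of 1000 or more. Over all 65062 transcripts with a 4 dpl mean of 50 or more, it was the highest in 19.9%, and over all 4402 with a 4 dpl mean of 1000 or more in 27.9%. Over all transcripts it had the most listed at 0 (35104) and the lowest median value (7.94). Scaling on abundant transcripts lowered its values the most among the 9 earlier libraries, by a factor of 0.865. These shares were not recomputed after scaling. The median member was at 13.9 in 1 dpl replicate 3, against 10.1 and 8.42 in the other 1 dpl libraries. The number of transcripts counted also changed with it. Without this library, 528 transcripts met the criteria in place of 270. Leaving out any other library gave between 260 and 404.

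The earlier groups were next compared with each other, where the criteria limit the size of a difference to 1.5 log2 units but not its direction. The mean of the log2 values was higher at 1 dpl than in intact iris for 138 members (69.0%), and the median difference was 0.45. Of all transcripts with a 4 dpl mean of 50 or more, 58.6% were higher at 1 dpl. Intact iris held the lowest of the 3 earlier means in 101 members (44.7% of all transcripts of that abundance) and 1 dpl the highest in 101 (36.3%). Means stood in the ascending order intact, 6 hpl, 1 dpl in 64 members (32.0%) and in the reverse order in 14 (7%), where all transcripts of that abundance gave 22.3% and 11.01%. With libraries scaled on abundant transcripts, 126 members (63.0%) and 46.0% of all transcripts of that abundance were higher at 1 dpl than in intact iris.

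Differences between the earlier groups were then tested. By limma with Benjamini-Hochberg adjustment at 0.05 over all transcripts, 2 members were called at 1 dpl against intact, both higher, where 3.57% of all 855254 transcripts tested were called and 1.94% were called higher. At 6 hpl against intact 1 member was called, higher at 6 hpl, where 2.78% of all transcripts were called and 2.06% called higher. At 1 dpl against 6 hpl none of the 200 was called by limma, where 0.587% of all transcripts were called and 0.263% called higher. In that comparison 36 of the 200 members had an unadjusted limma p under 0.05, as did 111876 of all 855254 transcripts tested. For 1 dpl against intact these numbers were 43 members and 138120 of all transcripts tested. For 6 hpl against intact they were 24 members and 132057 of all transcripts tested. The limit of 1.5 log2 units in the criteria removes the larger differences, so the low shares of calls are not a result about the members. Without 1 dpl replicate 2, 6 members were called at 1 dpl and 3 at 6 hpl against intact. Of all 855184 transcripts tested in that setting, 26712 and 25153 were called. Without 1 dpl replicate 1, 2 members were called at 6 hpl against intact, where 24108 of all 855196 transcripts were.

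The member called at 6 hpl held 6.33, 8.40 and 6.98 in the intact libraries, 23.3, 23.98 and 18.99 in those of 6 hpl, 12.5, 5.77 and 6.73 in those of 1 dpl and 86.4, 122 and 144 in those of 4 dpl. It thus stood higher at 6 hpl by 1.49 log2 units (SE 0.39), lay near its intact level at 1 dpl and was highest at 4 dpl. Of the members called at 1 dpl, one was at 11.6, 23.3 and 17.6 in intact iris, at 25.4, 24.1 and 14.5 at 6 hpl, at 56.2, 33.2 and 61.2 at 1 dpl and at 302, 247 and 310 at 4 dpl, a difference of 1.47 (SE 0.37) at 1 dpl. The other was at 149, 152 and 121 in intact iris, at 263, 322 and 363 at 6 hpl, at 417, 212 and 410 at 1 dpl and at 1352, 1780 and 1911 at 4 dpl, a difference of 1.24 (SE 0.32). The members called at 1 dpl had no library of intact iris within their 1 dpl range. The call at 6 hpl was lost without any 1 library of intact iris, 6 hpl or 4 dpl, where 0 members were called. It was also lost with scaling to equal totals, scaling on abundant transcripts, the replicate block or no variance trend (0 members each). The calls at 1 dpl were both lost without a variance trend, and likewise when intact replicate 1, 1 dpl replicate 1 or 1 dpl replicate 3 was left out. With scaling on abundant transcripts, or when intact replicate 3, 6 hpl replicate 2 or 4 dpl replicate 2 was left out, 1 member was called at 1 dpl.

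Against 4 dpl the same model called 200 members against intact, 200 against 6 hpl and 195 against 1 dpl, all higher at 4 dpl. Of all transcripts, 6.25%, 3.90% and 0.719% were called in these comparisons, and 3.88%, 2.11% and 0.509% were called higher at 4 dpl. The criteria used these contrasts, so nothing is read from the counts. The 5 members not called against 1 dpl had differences from 2.30 to 2.82 log2 units with SEs from 0.55 to 0.69.

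The 4 dpl libraries of a member lay within 1 log2 unit of each other in 153 members and further apart in 47 (23.5%), close to the 21.8% among all transcripts with a 4 dpl mean of 50 or more. The median distance between the highest and the lowest 4 dpl library was 0.67 log2 units. Replicate 3 was the highest in 84 members, replicate 1 in 61 and replicate 2 in 55. Replicate 3 also had the largest sum of all 12 libraries (40770545). No matching shares were computed over all transcripts, so these numbers are not read as a result about the members. The direction of the wide spreads was uneven. In 16 of the 47 members replicate 1 was lowest, replicate 3 in between and replicate 2 highest (34.04%), an order found in 13.5% of the 14201 transcripts of that abundance with as wide a spread.

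In 11 members (5.50%) 4 dpl replicate 2 was at least 4 times replicate 1, against 1.35% of all transcripts with a 4 dpl mean of 50 or more. The reverse, replicate 1 at least 4 times replicate 2, was found in 0 members and in 1.33% of all those transcripts. Replicate 2 was the highest 4 dpl library in all 11, and all 11 are among the 16 members with the order described above. Over the 11, the ratio of replicate 2 to replicate 1, which the definition bounds from below, ran from 4.62 to 22.4 with a median of 5.63, and the ratio of replicate 3 to replicate 1 ran from 1.25 to 8.58. This class of members was defined, and that order singled out, after the values were seen, and no test was made of either.

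The 11 members were among those with the largest differences. Their log2 differences between 4 dpl and the earlier groups ran from 4.53 to 7.05, and they made up 9 of the 15 members with a difference of 5 or more. The median over the 189 other members was 3.54. The gap criterion and the definition of the 11 both raise this difference. The contrast thus follows in part from how they were chosen and carries no test. The member with the third largest gap was at 629, 3283 and 1653 in the 4 dpl libraries, and no earlier library exceeded 28.8. The eighth by gap was at 230.7, 1489 and 896, with an earlier maximum of 16.8, and the ninth was at 120, 689.8 and 497, with an earlier maximum of 8.74. The most uneven of the 11 was at 34.3, 767 and 294 at 4 dpl, a 22.4-fold range between replicates, with an earlier maximum of 4.85. The size of the difference in these members thus depends on which 4 dpl pool is considered. That each pool lay above all earlier libraries is required by the criteria.

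**Figure D3:**
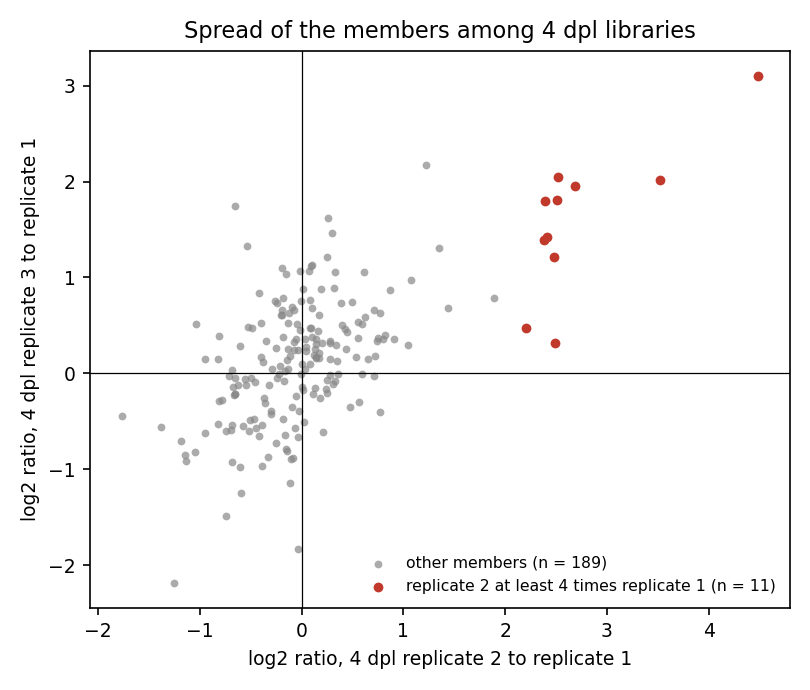
Log2 ratio of 4 dpl replicate 2 to replicate 1 (horizontal axis) against that of replicate 3 to replicate 1 (vertical axis), 1 point per member. The 11 members with replicate 2 at least 4 times replicate 1 lie furthest to the right, as their definition requires, and no member lies as far to the left. The cut is not a natural break, since a further member had a ratio of 3.72.

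Transcript IDs consist of a first digit from 1 to 9 and a number. No source used here says what the digit stands for. Of the members, 136 (68.0%) had first digit 7 or 8, where these digits made up 20.8% of all transcripts and 24.2% of those with a 4 dpl mean of 50 or more. IDs with these digits tend to be higher at 4 dpl in general, since the median difference between 4 dpl and the earlier groups was 0.43 log2 units over all 177906 of them and -0.03 over all transcripts. The part of the digit in the membership was not tested.

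Members with other digits were no less abundant at 4 dpl. The 57 members with digits 1 to 6 had a median 4 dpl mean of 214 and a median log2 difference of 3.80, against 118 and 3.55 in the 136 members with digits 7 or 8. Of the members at 500 or more at 4 dpl, 15 had digits 1 to 6, 11 had digits 7 or 8 and 2 had digit 9. Both 1_7156037 and 4_29161064 have digits from 1 to 6.

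The same criteria were applied with each other group as the high one. They were met by 102 transcripts for intact iris, 125 for 6 hpl and 23 for 1 dpl, against 270 for 4 dpl. As a share of the transcripts with a mean of 50 or more in the high group these were 0.163%, 0.193%, 0.0362% and 0.415%. The gap was 3 or more for 21 transcripts at 4 dpl, 4 at 6 hpl, 1 at 1 dpl and 1 in intact iris. The highest mean in the high group was 502 for intact iris, 713 for 6 hpl and 319 for 1 dpl, so the transcripts above 1000 were found only at 4 dpl in the values as deposited. In each set most IDs carried the same pair of digits, 1 or 2 for intact iris (84.3%), 3 or 4 for 6 hpl (88.8%), 5 or 6 for 1 dpl (73.9%) and 7 or 8 for 4 dpl (66.7%). The 4 dpl set was thus the largest and the most mixed in digits. The order of the counts was not stable, since 410 transcripts met the criteria for intact iris without intact replicate 3, 367 without 6 hpl replicate 1 and 197 without intact replicate 2. For 6 hpl the count became 203 when 6 hpl replicate 3 was left out, 194 when 6 hpl replicate 2 was, and 190 when 1 dpl replicate 1 was. For 1 dpl it was 94 without 1 dpl replicate 2 and 40 without 1 dpl replicate 3.

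**Figure D4:**
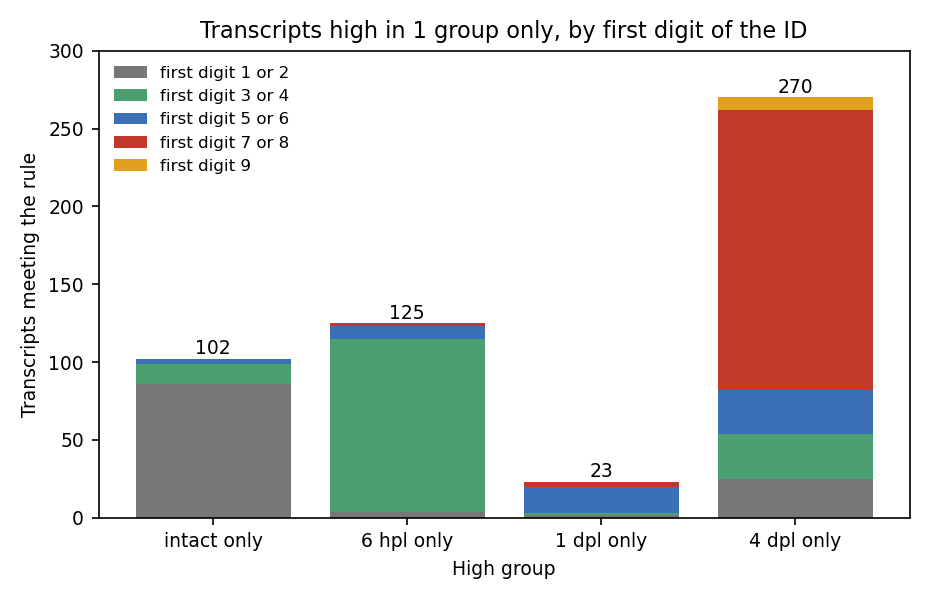
Number of transcripts meeting the same criteria with each group as the high one, stacked by the first digit of the ID. The 4 dpl bar is the tallest, with 270 transcripts, and each bar is mostly of 1 pair of digits.

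For 4 dpl, 426 transcripts of sufficient mean had the gap of 1.5 log2 units, and 156 of them were left out because the earlier groups differed from each other by more than 1.5. In intact iris 135 of 237 were left out in this way, at 6 hpl 69 of 194 and at 1 dpl 7 of 30.

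Some members had neighbouring ID numbers. In 9 pairs, made up of 18 members, the numbers were at most 20 apart. Whether neighbouring IDs are isoforms or fragments of 1 gene was not given. Reads may be shared among such transcripts, which was not examined, so the members of a pair cannot be taken as independent. The members with the third and the fourth largest gap were 2 apart. At 4 dpl the first of them was at 629, 3283 and 1653 and the second at 125, 710 and 437, so both showed the same uneven 4 dpl libraries at different levels. In another pair, 1 apart, means at 4 dpl were 94.8 and 64.5, with earlier maxima of 14.9 and 13.0. A pair 2 apart differed most in level, with 4 dpl means of 1511 and 115.

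Transcripts next to members were not used to choose them and were examined as well. Within 20 ID numbers of a member lay 289 transcripts that did not meet the criteria, next to 140 of the 200 members. Their median log2 difference between 4 dpl and the earlier groups was 0.54, and it exceeded 1 in 110 of them (38.1%) and was below -1 in 16 (5.54%). Over all transcripts these shares were 8.54% and 8.15%, and over those with first digit 7 or 8 they were 23.3% and 2.24%. The median difference was -0.03 over all transcripts and 0.43 over those with first digit 7 or 8. Of the neighbours, 61.9% had these digits. For 107 of the 140 members the median over its neighbours was above 0. No matching share was computed for other transcripts, and most of those with first digit 7 or 8 also lay above 0.

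By limma with Benjamini-Hochberg adjustment, 80 of the 289 neighbours (27.7%) were called higher at 4 dpl against intact, where 3.88% of all transcripts and 7.96% of those with digits 7 or 8 were called higher. Against 6 hpl 59 (20.4%) were called higher, where the shares were 2.11% and 5.79%, and against 1 dpl 34 (11.8%), where they were 0.509% and 1.60%. The 3 comparisons share the 4 dpl libraries. As neighbours may share reads with the members, this is not independent support for them. Neighbours of the 102 transcripts high in intact iris only had a median difference of -1.08, those of the 125 at 6 hpl -0.33 and those of the 23 at 1 dpl -0.47.

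**Figure D5:**
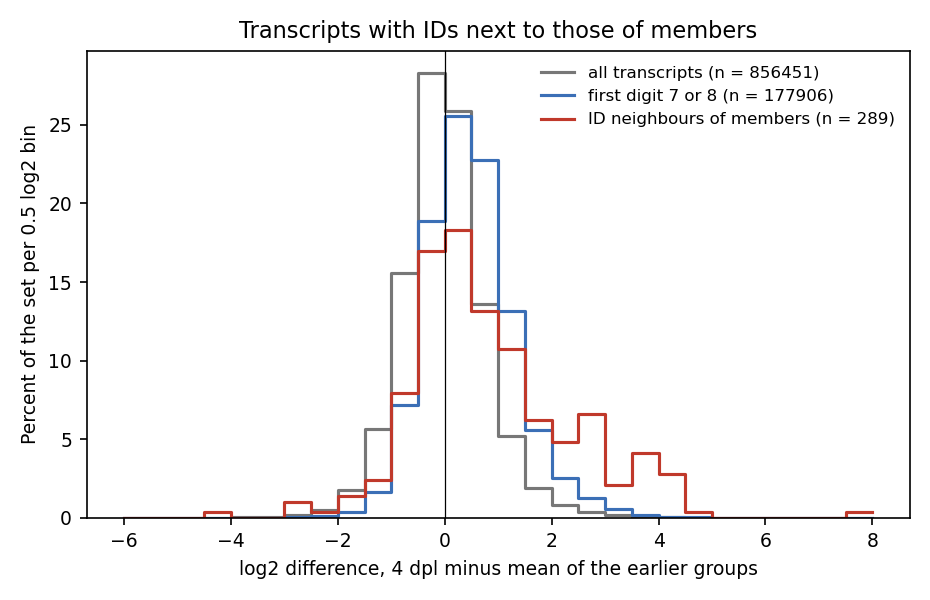
Distribution of the log2 difference between 4 dpl and the mean of the earlier groups, as percent per bin of 0.5, for the 289 ID neighbours of members, all transcripts and transcripts with first digit 7 or 8. The neighbours extend further to the right, with 38.1% of them above 1.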

How the data were processed

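Per the study's methods, the authors trimmed reads with Trim Galore, removed ribosomal reads with Bowtie2 against Silva, assembled each condition separately with Trinity and merged the assemblies with DRAP runMeta. They estimated abundance with Salmon and averaged it over inferential replicates. No tool versions were stated. The authors deposited a normalised abundance signal per transcript, which they call TPM, although its sums differ between libraries and exceed those of TPM. How libraries were scaled is not stated. Read depth cannot be recovered, so no counting intervals were computed.

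Columns were matched to samples by their titles, and 0 columns were left unused. The members and tests were chosen with earlier results of these data known. Values were transformed as log2(value + 1), which understates changes of low transcripts. For the calls, the 855254 transcripts that reached a value of 1 in 3 of the 12 libraries, all 200 members among them, were fitted with limma 3.58.1 in R 4.3.3 (4 group means, variance trend, two-sided). The authors' Swish test needs inferential replicates, which were not used here. The fit and the criteria were tested on simulated data. The rule for printed IDs allowed 2, the member with the largest gap and the member with the highest mean at 4 dpl, because the table has no names. Other members are given by rank, several chosen after their values were seen. Alternatives were a pseudocount of 0.1, scaling to equal totals or on transcripts with a mean of 100 or more, no filter, no variance trend, a replicate block and leaving out each library.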

Additional observations from a re-analysis of the deposited data

How the results depend on the processing

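Of the 200 members, 162 still met the criteria with a pseudocount of 0.1, 175 with libraries scaled to equal totals, 170 with scaling on abundant transcripts and between 176 and 196 when a library was left out. The number of transcripts meeting the criteria was 239, 219 and 234 under the first 3 and ranged from 260 to 528 without a library, the highest without 1 dpl replicate 3. For the other groups as the high one, a pseudocount of 0.1 gave 14 for 1 dpl and 44 for intact iris, and scaling on abundant transcripts 179 for intact iris. Leaving out a library gave 20 to 94 for 1 dpl, 123 to 203 for 6 hpl and 93 to 410 for intact iris. The cause was not tested.

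Members called at 1 dpl against intact numbered 1 with scaling on abundant transcripts, 0 without a variance trend and 0 to 6 without a library. At 6 hpl against intact there were 0 with scaling to equal totals, 0 with scaling on abundant transcripts, 0 with the replicate block, 0 without a variance trend and 0 to 3 without a library. At 1 dpl against 6 hpl there were 0 under all alternatives run. Against 4 dpl the counts stayed within 1.5 times those reported, between 170 and 200. The share of ID neighbours called higher at 4 dpl against intact ranged from 19.4% to 28.7%, and members higher at 1 dpl than in intact iris from 126 to 149. The median difference of all transcripts between 1 dpl and intact was -0.17 log2 units with scaling on abundant transcripts and -0.02 as deposited. The alternatives for the other groups, the digits, the neighbours and the members higher at 1 dpl were chosen after seeing the data.

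The log2 difference of 1_7156037 was 6.58 with a pseudocount of 0.1. That of 4_29161064 stayed between 2.55 and 2.80. Correlations of the deviations from the group means were computed between libraries of different groups. For same-numbered libraries r ran from -0.19 to 0.05 over 18 pairs, and for differently numbered ones from -0.097 to 0.22 over 36. With 3 libraries per group, these values cannot decide whether the numbers pair the samples. With the replicate block, 196 members were called at 4 dpl against 1 dpl, and no other count of members moved by more than 1 call. The depth behind each value is unknown, which limits what can be said of values of a few units.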
